A study of Mus musculus with 22 samples.

Results

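Cells keep proteins folded with chaperones, and the genes described here are 45 mouse genes of the heat shock response and the unfolded protein response (UPR), measured in regulatory T cells (Tregs) of visceral fat. They were taken as a named list of chaperone and endoplasmic reticulum (ER) stress genes. No cut on measured values picked them, but the list was chosen with earlier results of these data known. All 45 were found among the 55011 genes of the deposited count table. By role they comprised 18 genes of the cytosolic and mitochondrial heat shock response, 14 ER chaperones, 9 UPR sensors, factors and degradation genes, and 4 targets of the transcription factor ATF4.

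The Tregs came from male mice of the strain C57BL/6 Foxp3.Cre-YFP, in which Foxp3 drives a fusion of Cre and YFP, and were labelled Bmal1 WT or KO. Bmal1 (Arntl) encodes a core activator of the circadian clock. WT and KO mice alike are labelled with this strain, and how Bmal1 was removed is not given in the sources used here. Each library was made from 1000 YFP+ cells that went through the sorter in a pair of rounds at ZT0. Lean diet mice were 18 weeks old (3 WT and 3 KO libraries). Mice on high fat diet for 4 weeks were also 18 weeks old and those on it for 16 weeks were 30 weeks old, each after 14 weeks of lean diet (3 WT and 3 KO libraries per duration). In a separate adoptive transfer, Tregs were recovered from fat 9 weeks after transfer, from mice of 20 weeks (2 WT and 2 KO libraries). The labels give neither the host's genotype nor whether libraries of a group came from separate mice, so p-values measure the spread between these libraries, which may be technical.

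The diet libraries held 1955940 to 3467019 counts each and the transfer libraries 4814337 to 5990319. Levels are in CPM, counts divided by library size after TMM scaling over the 22 libraries. A count of 0 allows up to 3 counts, which is 0.554 to 1.56 CPM depending on the library, counting error only. Arntl overlapped between KO (72.5 to 101.5 CPM) and WT (54.2 to 104 CPM), which checks nothing, since the removed piece is not known and shortened messages are still counted. Nr1d2, a clock gene that BMAL1 drives, separated the labels at 0 to 3.09 CPM in 11 KO libraries and at least 23.1 CPM in each of 11 WT libraries. The Treg factor Foxp3 averaged 497 to 643 CPM across diets and transfer.

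The heat shock response protects the cytosol. When unfolded protein accumulates, the factor HSF1 is released from its chaperones and binds heat shock elements, which are inverted repeats of GAA. The UPR protects the ER and is sensed by IRE1 (Ern1), PERK (Eif2ak3) and ATF6. IRE1 splices the Xbp1 message into one that encodes an active factor. PERK slows translation through the factor eIF2, which lets ATF4 be made. XBP1 and ATF6 act at ER stress elements in chaperone promoters. Some chaperone genes, above all Hspa1a and Hspa1b, are also known to respond to heat and handling while cells are isolated. Counts per gene do not tell spliced from unspliced Xbp1, nor do they show the translation of ATF4.

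Promoter sequences are shown because ER stress elements and heat shock elements lay in different members of the list. Windows of 300 bases, from 250 before to 50 after a gene start, came from RefSeq (GRCm38.p6) and matched 37 of the 45 genes. The ER stress element, CCAAT and CCACG with 9 free bases between them, was searched on both strands and lay in 0.119% of all 32851 windows. It was found in windows of 7 of the 37 genes, and these 7 were all ER chaperones, of which 12 had a window. Here and below a gene counts if any of its windows holds a match, while shares of all windows are per window. The measures are therefore unlike. Its first base in the gene's direction lay 65 bases before the start in Hspa5, 145 in Canx, 98 in Pdia6 and 105 in Dnajc3. On the opposite strand, the match lay 162 bases before the start in Calr and 126 in Creld2. Hsp90b1 held it in both orientations. In the order printed, with the strand read, these windows are chr2:34772015-34772053 (plus), chr8:84847065-84847103 (plus), chr10:86705628-86705666 (minus), chr10:86705523-86705561 (plus), chr11:50325790-50325828 (minus), chr12:17266481-17266519 (plus), chr14:118937817-118937855 (plus) and chr15:88819510-88819548 (minus). Capitals mark CCAAT and CCACG in the element, with 10 bases on each side.
Hspa5: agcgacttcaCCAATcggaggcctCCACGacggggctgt
Calr: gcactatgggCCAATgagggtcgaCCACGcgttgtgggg
Hsp90b1, site farther from the start: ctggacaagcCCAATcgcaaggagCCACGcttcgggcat
Hsp90b1, site nearer the start: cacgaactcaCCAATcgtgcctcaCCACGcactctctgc
Canx: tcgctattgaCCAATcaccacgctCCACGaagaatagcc
Pdia6: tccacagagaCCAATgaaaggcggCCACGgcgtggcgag
Dnajc3: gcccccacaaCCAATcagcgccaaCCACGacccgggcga
Creld2: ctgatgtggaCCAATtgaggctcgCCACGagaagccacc

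The related ER stress element II, ATTGG and CCACG with 1 free base between them, also on either strand, lay in 0.0365% of all windows and in those of Dnajb11 and Herpud1. In Herpud1, whose level carries the diet result below, it began 52 bases before the start (chr8:94386367-94386397, plus strand). The letters TGATGCAA, a form of the element that ATF4 can bind with a C/EBP partner, searched on both strands, were in 0.895% of all windows and in those of Herpud1 and Chac1. In Herpud1 they lay on the minus strand at chr8:94386307-94386334, shown with 10 bases on each side. Capitals mark the fixed letters of each element.
Herpud1, ER stress element: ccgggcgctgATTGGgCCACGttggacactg
Herpud1, ATF4 type element: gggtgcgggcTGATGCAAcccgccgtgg

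The heat shock element of 3 units, GAA, TTC and GAA with 2 free bases between neighbours, on either strand, was in 0.603% of all windows. It lay in windows of 4 of the 37 genes, Hspd1, Hspe1, Hsph1 and Chordc1. Hspd1 and Hspe1 encode the mitochondrial chaperonin and its partner and start back to back, so the match between them, at chr1:55088054-55088086 read on the plus strand, counts for both. A form of 2 units, GAANNTTC, was common, at 7.86% of all windows. It lay in windows of 10 of the 37 genes, heat shock genes (among them Hspa1a and Hspa1b) except for Asns, an ATF4 target that makes asparagine. The other form of 2 units, TTCNNGAA, was in 8.52% of all windows. It lay in windows of 6 of the 37 genes, Hspd1, Hspe1, Hsph1, Dnajb4, Chordc1 and the UPR sensor gene Eif2ak3. Every match of 3 units holds both forms of 2 units, so the counts overlap. The 250 bases before the starts of Hspa1a (chr17:34972157-34972406, minus strand) and Hspa1b (chr17:34959239-34959488, minus strand) are printed because these copies of inducible HSP70 were the most variable genes here. They differ at 3 of 250 bases. Capitals mark GAA and TTC of the heat shock element and, in the HSP70 promoters, the CCAAT box in reverse.
Hspd1 and Hspe1, shared: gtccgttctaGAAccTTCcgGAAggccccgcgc
Hspa1a: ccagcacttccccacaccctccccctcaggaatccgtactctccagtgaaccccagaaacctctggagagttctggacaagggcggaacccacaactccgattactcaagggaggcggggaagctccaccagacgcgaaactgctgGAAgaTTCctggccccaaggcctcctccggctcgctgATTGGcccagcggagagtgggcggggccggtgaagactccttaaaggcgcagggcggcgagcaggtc
Hspa1b: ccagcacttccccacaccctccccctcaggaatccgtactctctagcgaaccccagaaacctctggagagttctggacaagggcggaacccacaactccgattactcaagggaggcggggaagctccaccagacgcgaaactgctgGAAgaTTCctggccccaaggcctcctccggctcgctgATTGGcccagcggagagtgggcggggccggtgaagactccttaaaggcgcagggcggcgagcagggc

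Most of the 45 genes were expressed in every library. Levels per length, in CPM per kilobase of exon over the 22 libraries, were highest for Hsp90ab1, the constitutive HSP90, at 808. Hspa8, the constitutive HSP70, followed at 457. Ppp1r15a, which encodes the eIF2 phosphatase subunit GADD34, came next at 356, and then Pdia3, an ER oxidoreductase that works on glycoproteins, at 204. At the other end stood the ATF4 targets Chac1, a glutathione-degrading enzyme, at 0.148 and Trib3, a pseudokinase, at 1.18, with the HSP40 Dnajb4 at 1.40 and the small heat shock protein Hspb1 at 1.66. Chac1 had no count in 19 libraries and 2, 8 and 6 counts in the other three, lean WT library 1, library 2 of KO after 4 weeks and library 2 of WT after 16 weeks. Reads of near-identical copies can be lost or misplaced when counted. Of the 38-base stretches of the transcripts, 68.8% in Hspa1a and 65.9% in Hspa1b occurred in other genes, mostly in each other. The share was over 20% in 8 genes, the others being Hspb1, Hsp90aa1, Hspd1, Hspa8, Hspe1 and Dnaja1. Counts of these 8 are uncertain to that extent.

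**Figure D1:**
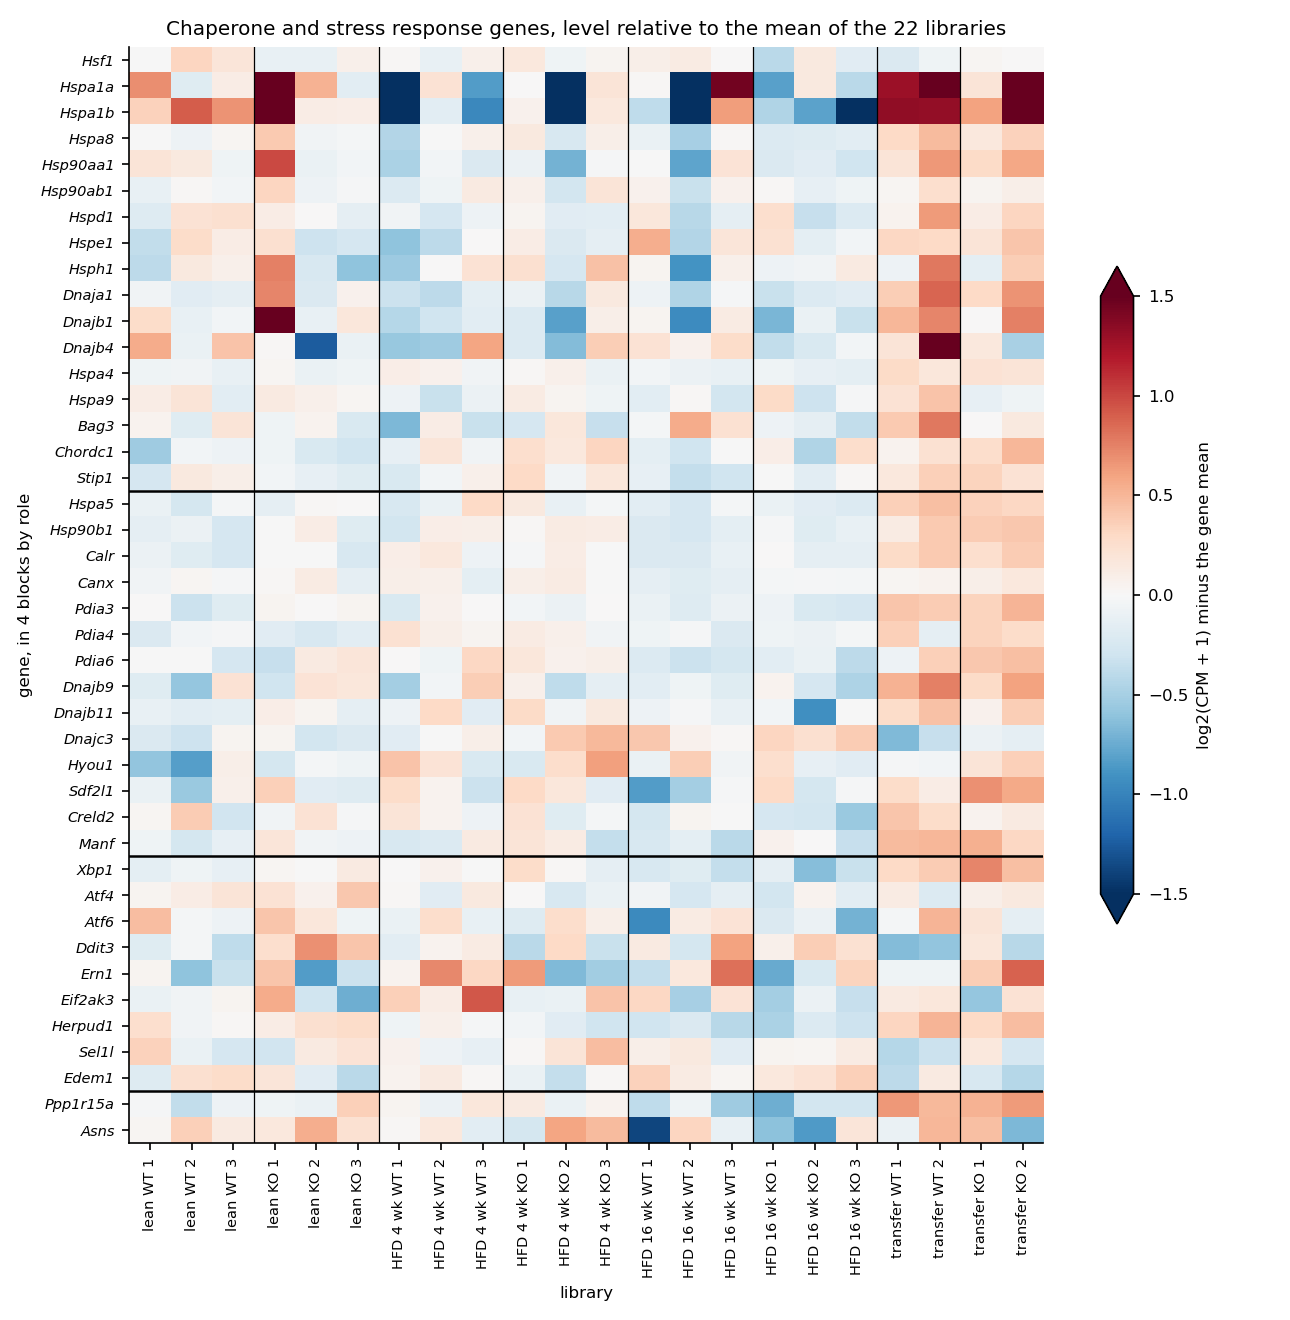
Level of each gene in each of the 22 libraries, as log2(CPM + 1) minus the gene's mean, for the 42 genes averaging at least 5 CPM. Columns are libraries in their groups (WT, KO; HFD is high fat diet, wk is weeks) and blocks from top to bottom are heat shock genes, ER chaperones, UPR genes and ATF4 targets. Hspa1a and Hspa1b vary most within groups, and 7 of the 14 ER chaperones rose in the 4 transfer libraries, while others such as Canx and Dnajc3 did not pass.

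The spread between libraries of a group was very uneven across the list. The within-group SD of log2(CPM + 1) was 1.56 for Hspa1a and 0.91 for Hspa1b, then 0.66 for Hspb1 and 0.56 for Trib3, both of low counts. It was 0.06 for Hspa4, an HSP110-type exchange factor, and 0.08 for Canx, the lectin chaperone calnexin. Hspa1a ran from 2.17 CPM (7 counts) in library 2 of WT after 16 weeks to 508 CPM (1386 counts) in lean KO library 1. Every group overlapped others within that range.

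Lean KO library 1 stood above the other lean libraries in the inducible heat shock genes. Hspa1a was 508 CPM there against 74.6 and 46.4 CPM in the other lean KO libraries and 84.4, 45.3 and 56.0 CPM in lean WT. Dnajb1, the main HSP40 partner of HSP70, was 994 CPM against 317 and 387 CPM in lean KO and 415, 319 and 334 CPM in lean WT. Among 17 heat shock genes averaging at least 5 CPM, this library held the highest level of the 18 diet libraries in 8. Summed over the 18 heat shock genes it had 9735 CPM, and the other 5 lean libraries had 6367 to 6711 CPM. The ER chaperones did not stand out in it, with a sum of 3021 CPM against 2744 to 3169 CPM in the other lean libraries.

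Library 2 of WT after 16 weeks stood at the low end and held the lowest level of the 18 diet libraries in 10 of the 17. Its heat shock sum was 5059 CPM, with 6695 and 6937 CPM in the other libraries of its group. After 4 weeks, WT library 1 (5479 CPM) and KO library 2 (5595 CPM) were low, while the other 4 libraries had 6381 to 7368 CPM. The summed level of 25 immediate early genes, which handling also induces, was 39478 CPM in lean KO library 1 against 37098 and 39493 CPM in the other lean KO libraries. It was 22819 CPM in library 2 of WT after 16 weeks against 20608 and 22127 CPM. At 4 weeks it was 24626 CPM in WT library 1 against 23390 and 26802 CPM, and 24571 CPM in KO library 2, the lowest of its group, against 30941 and 28582 CPM.

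**Figure D2:**
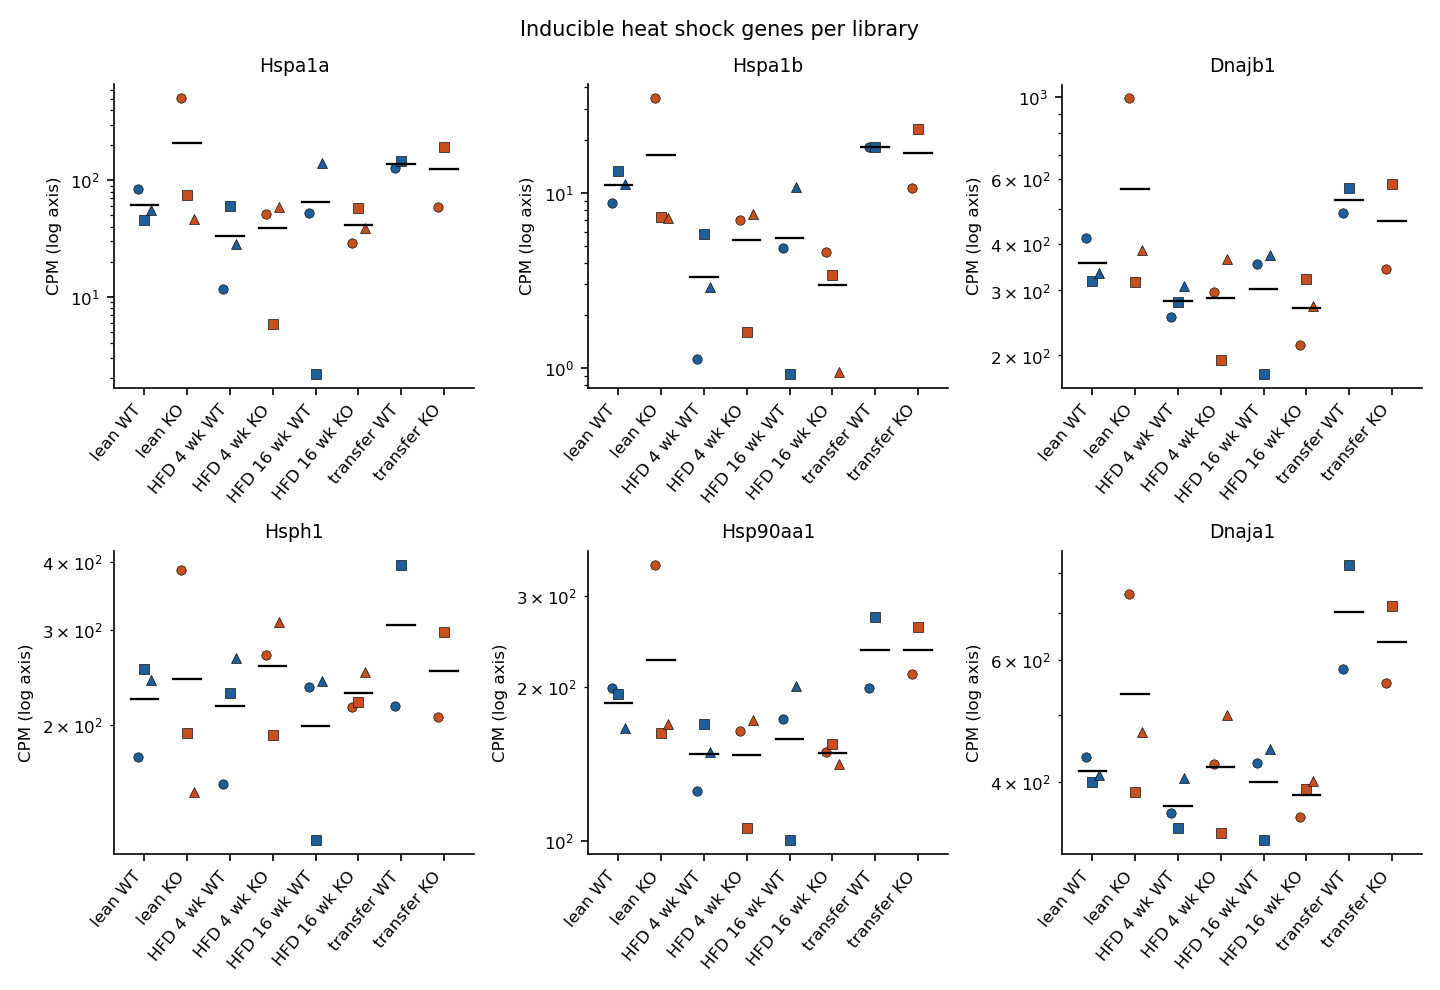
CPM of 6 inducible heat shock genes per library on a log axis, WT in blue and KO in orange; circles, squares and triangles are libraries 1, 2 and 3, and bars are group means. Lean KO library 1 is highest of the diet libraries in all 6, with Hspa1a at 508 CPM, and library 2 of WT after 16 weeks is lowest in all 6, with Hspa1a at 2.17 CPM.

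KO against WT asks whether loss of the clock factor in Tregs changes these genes. On lean diet 0 of 42 tested genes passed edgeR's quasi-likelihood test at an adjusted p under 0.05 (Benjamini-Hochberg over all genes), where 0.0427% of all 11698 genes passed. At an unadjusted p under 0.05 there was 1 (2.38%, against 7.17% of all genes), Ddit3, and DESeq2 called 0. With no filter on low counts edgeR called 2, Dnajb1 and Hspa1a. The share of all genes called with no filter is not given, here or below. Ddit3, which encodes the stress factor CHOP, was 29.7, 40.4 and 33.3 CPM in KO and 21.6, 24.1 and 18.7 CPM in WT. All 3 KO libraries lay above WT, with a log2 fold change of 0.68 ± 0.26 (SE) and an adjusted p of 0.551. Part of Ddit3 overlaps Mars on the opposite strand, and the kit does not mark strand. KO ranges lay above WT for 3 genes (7.14%, against 6.92% of all genes) and below for 0 (6.21% of all genes).

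The next smallest p-values on lean diet belonged to Dnajb1 (log2 0.66 ± 0.32, adjusted p = 0.704) and Dnaja1, another HSP40 (0.37 ± 0.18, 0.713). Only KO library 1 lay above every WT library for Dnajb1. Without that library the log2 fold change of Dnajb1 was -0.00 (-0.003942, adjusted p = 0.9995) and that of Dnaja1 was 0.06. The ER chaperones were 12 of 14 positive in KO with a median log2 fold change of 0.11, where the median of all genes was -0.00272 and 0 of the 14 passed. Of the 25 immediate early genes 24 were also positive in lean KO (median 0.55) and 0 passed; their part was not tested.

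After high fat diet the genotypes were again not separated. At 4 weeks 0 of 42 genes passed (0.0684% of all genes did) and DESeq2 called 0. An unadjusted p under 0.05 was held by 1 gene (2.38%, against 4.62% of all genes). That gene was Dnajc3, which encodes an ER co-chaperone and inhibitor of eIF2 kinases, at 87.6, 119 and 126 CPM in KO and 80.2, 89.5 and 95.4 CPM in WT (log2 0.33 ± 0.15, adjusted p = 0.9992). Stip1, the adaptor between HSP70 and HSP90, came next at 0.21 ± 0.13, and Sel1l, an adaptor of ER-associated degradation, at 0.28 ± 0.17, both with an adjusted p of 0.9992. KO ranges lay above WT for 1 gene and below for 1, where 4.94% and 4.97% of all genes did. At 16 weeks 0 of 42 passed (0.0427% of all genes) and DESeq2 called 0. An unadjusted p under 0.05 was held by 1 gene (2.38%, against 9.15% of all genes). That was Bag3, an HSP70 cofactor in selective autophagy, with 52.4, 50.3 and 42.5 CPM in KO, all below the 54.4, 82.0 and 65.0 CPM of WT (log2 -0.46 ± 0.21, adjusted p = 0.519). Stip1 followed (0.23 ± 0.13, 0.621), then Sdf2l1, an ER chaperone cofactor (0.48 ± 0.26, 0.623). KO ranges lay above WT for 1 gene and below for 2, where 5.76% and 8.28% of all genes did. Of the 25 immediate early genes 23 were negative in KO at 16 weeks (median -0.44) and 0 passed.

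Averaged over the 3 diets, 9 KO against 9 WT libraries, 0 of 42 genes passed by edgeR or DESeq2, where 0.18% of all genes passed by edgeR. An unadjusted p under 0.05 was held by 0 of the 42, against 7.39% of all genes. With no filter edgeR called 1, Hspa1a. The smallest p-values were those of Dnajc3 (log2 0.17 ± 0.09, adjusted p = 0.718), Hsp90b1, the ER form of HSP90 (0.12 ± 0.07, 0.727), and Sdf2l1 (0.26 ± 0.15, 0.750). The letters CACGTG, the E-box that BMAL1 binds with CLOCK, lay in 7.15% of all promoter windows. They lay in windows of 4 of the 37 genes (10.8%, a share of genes and not of windows), Hspd1, Hsph1, Calr and Dnajb9. The averaged log2 fold changes of these genes were -0.01 for Hspd1, 0.19 for Hsph1, 0.06 for Calr and 0.00 for Dnajb9, and none passed (adjusted p 0.86 to 1 by edgeR). The 95% interval of the log2 fold change reached 0.20 to either side in the median gene and lay within -1 to 1 for 40 of the 42 genes, and within -0.5 to 0.5 for 32. Within a single diet the median reach was 0.35 to 0.36, and 36 or 37 intervals lay within -1 to 1. For those genes a log2 fold change of 1 lay outside the interval, and differences smaller than the intervals were not detectable with these libraries.

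The genotype by diet interactions called 0 of 42 genes and 0 of all genes (0%) at both durations, and DESeq2 called 0 of the 42. At an unadjusted p under 0.05 there was 1 gene at 4 weeks, Ddit3 (log2 -0.80 ± 0.36, adjusted p = 0.9997), and 0 at 16 weeks. Of all genes 4.56% and 8.49% had such p-values. With no filter edgeR called 1 gene at 4 weeks, Hspa1a, and 2 at 16 weeks, Hspa1a and Dnajb1. At 4 weeks Stip1 (0.33) and Herpud1 (-0.30) followed, both with the same adjusted p. At 16 weeks Stip1 led (0.35 ± 0.18, adjusted p = 0.608), then Hspa1a (-2.40 ± 1.26, 0.619) and Ddit3 (-0.63 ± 0.35, 0.639). The Hspa1a value went to -0.62 without lean KO library 1.

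After adoptive transfer 0 of 43 genes passed between KO and WT, where 0.171% of all genes did. DESeq2 called 0. At an unadjusted p under 0.05 there were 3 genes (6.98%, near the 6.53% of all genes), heat shock genes that were all lower in KO. Hspa9, the mitochondrial HSP70, was 166 and 173 CPM in KO and 209.7 and 244 CPM in WT (log2 -0.43 ± 0.14, adjusted p = 0.640). Bag3 was 55.6 and 61.2 CPM in KO and 73.1 and 96.9 CPM in WT (-0.55 ± 0.21, 0.711). Dnajb4 was 12.6 and 7.70 CPM in KO and 12.9 and 37.9 CPM in WT (-1.34 ± 0.54, 0.7199). Libraries of KO lay wholly above WT for 11 genes (25.6%), and wholly below for 6, where 18.5% and 17.3% of all genes did, with 2 libraries a side.

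**Figure D3:**
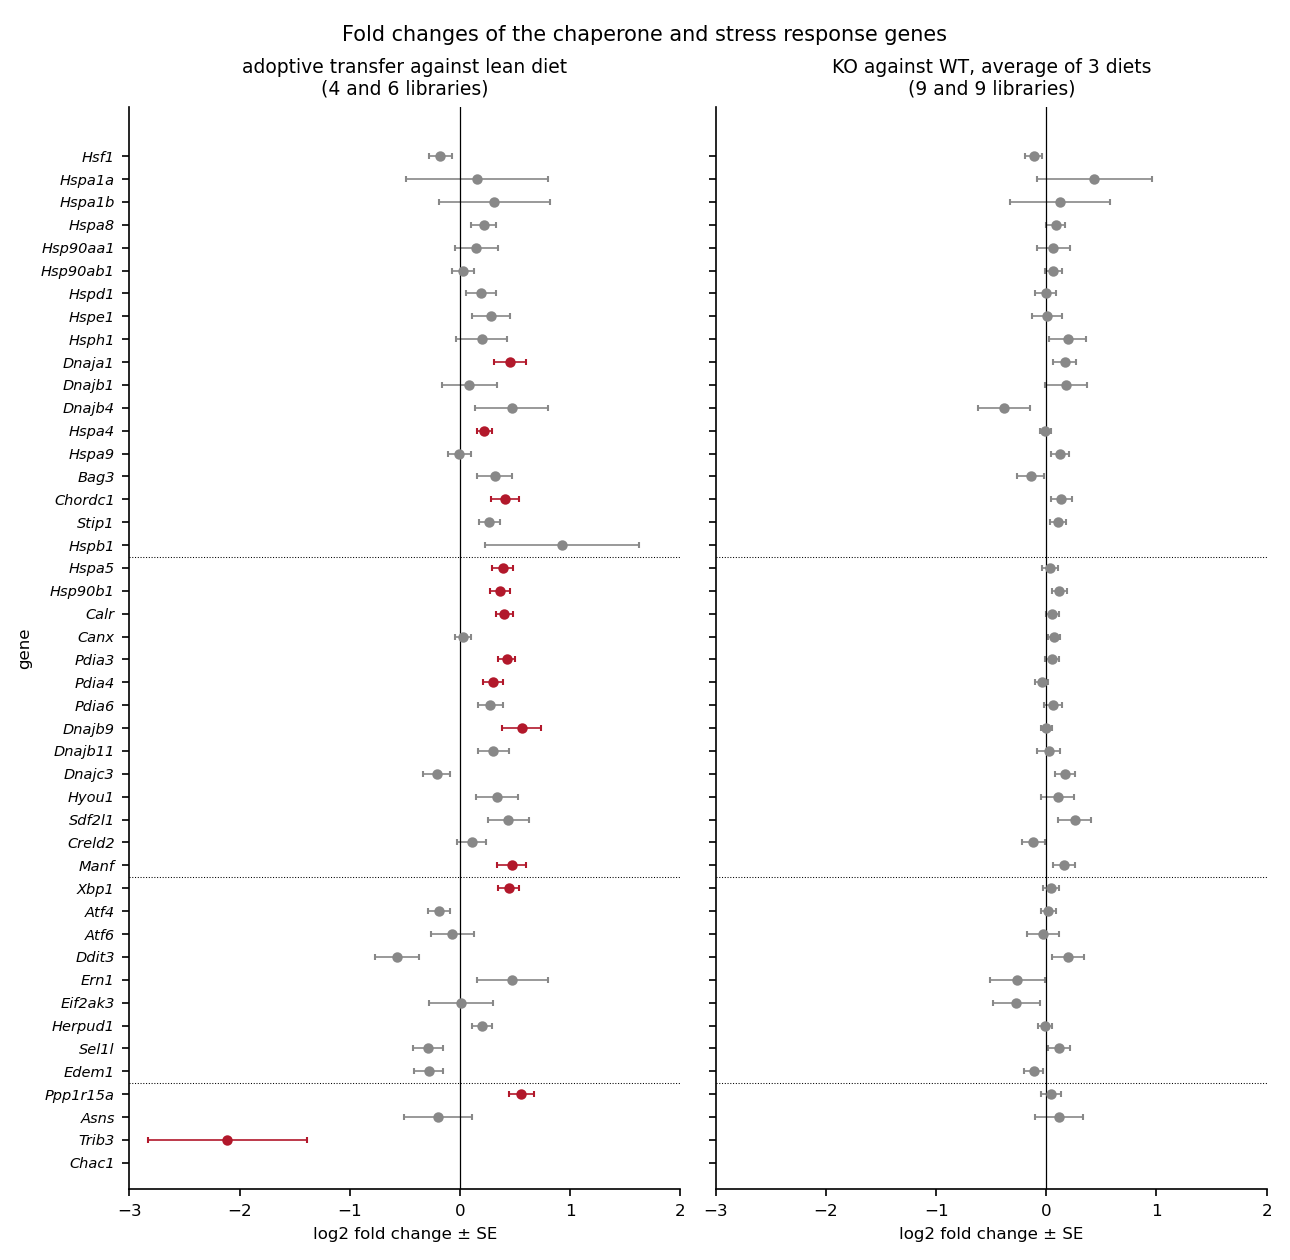
Log2 fold change ± SE of the tested genes for adoptive transfer against lean diet (left, 44 genes) and KO against WT averaged over the 3 diets (right, 42 genes), in the order of roles; red points passed at an adjusted p under 0.05. On the left 12 genes rose and Trib3 fell, and on the right 0 passed.

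The diet comparisons were made over both genotypes, 6 against 6 libraries. After 4 weeks of high fat diet 0 of 42 genes passed against lean diet, as did 0 of all genes (0%), and DESeq2 called 0 of the 42. With no filter edgeR called 4, all lower: Hspa1a, Hspa1b, Dnajb1 and Hsp90aa1, with no share of all genes to set beside them. Unadjusted p-values were under 0.05 for 12 genes (28.6%, against 8.04% of all genes), 5 positive and 7 negative. The smallest were those of Hspa1b (log2 -1.69 ± 0.54, adjusted p = 0.352), Herpud1 (-0.24 ± 0.08, 0.392) and Dnajb1 (-0.67 ± 0.23, 0.394). Without lean KO library 1 the values were -1.11 for Hspa1b and -0.34 for Dnajb1. Among ER chaperones 12 of 14 were positive with a median of 0.12, and among heat shock genes 13 of 17 were negative with a median of -0.14, where the median of all genes was -0.00342.

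After 16 weeks of high fat diet 3 of 42 genes passed against lean diet: Herpud1 and Atf4 fell and Dnajc3 rose. Their share, 7.14%, was near the 6.63% of all 11698 genes that passed (2.92% higher, 3.72% lower), and a share near the background is no result about these genes as a list. The 16-week mice were also older (30 against 18 weeks), and age and diet cannot be told apart. In bulk libraries a lower share of cells with a transcript and less of it per cell cannot be told apart either.

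Herpud1 (mm10 chr8:94386438-94395377) encodes an ER membrane protein that recruits the degradation machinery and is a known target of both ATF4 and the ER stress factors, and its promoter elements are printed above. It was 228, 184 and 194 CPM in lean WT and 206, 226 and 232 CPM in lean KO. After 16 weeks it was 155, 164 and 143 CPM in WT and 137, 166 and 154 CPM in KO. All 6 libraries of 16 weeks lay below all 6 lean libraries, whose lowest was 184 CPM. Herpud1 was the only member with such ranges, which 1.26% of all genes had. The log2 fold change was -0.48 ± 0.08 (adjusted p = 0.00126), and Herpud1 was called under all 17 alternative settings (adjusted p 1.32e-05 to 0.00626). After 4 weeks it averaged 181 ± 15.8 CPM (SD, n = 6), between lean (212 ± 20.2 CPM) and 16 weeks (153 ± 11.2 CPM), and neither step passed on its own (16 against 4 weeks, log2 -0.23 ± 0.08, adjusted p = 0.183).

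Atf4 (chr15:80255184-80257541), the factor made when eIF2 is phosphorylated, averaged 274 ± 26.2 CPM on lean diet and 221 ± 19.1 CPM after 16 weeks (log2 -0.32 ± 0.08, adjusted p = 0.0256). Its lean libraries had 249.5, 262.5 and 277 CPM in WT and 282, 254 and 321 CPM in KO. After 16 weeks it had 233, 203 and 221 CPM in WT and 201, 252 and 217 CPM in KO. Ranges overlapped through a single library, KO library 2 after 16 weeks. The call was lost without any one of lean WT library 3, lean KO library 3 and KO libraries 1 and 3 of 16 weeks, and without the filter on low counts (adjusted p 0.0105 to 0.0817 over all alternatives).

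Dnajc3 (chr14:118937976-118981697) went the other way, with 77.5, 72.3 and 92.8 CPM in lean WT and 92.3, 74.1 and 77.0 CPM in lean KO. After 16 weeks it had 119, 94.1 and 91.2 CPM in WT and 113, 107 and 118 CPM in KO. Of the 6 later libraries 5 lay above every lean library (log2 0.39 ± 0.11, adjusted p = 0.0371). The call held in 5 of 12 fits that left out a library. It was lost without lean WT library 1 or 2, lean KO library 2 or 3, WT library 1 of 16 weeks or KO library 1 or 3 of 16 weeks, and without the filter on low counts (adjusted p 0.0177 to 0.111 over all alternatives).

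Genes just short of the threshold, named here after their values were seen, were Xbp1, Hspa1b and Ppp1r15a. Xbp1 (chr11:5520659-5525893), the factor spliced by IRE1, had 204, 216 and 208 CPM in lean WT and 230.4, 225.5 and 249 CPM in lean KO. After 16 weeks it had 191, 199 and 176 CPM in WT and 206, 145 and 179 CPM in KO, which overlapped the lean range through 1 library (log2 -0.29 ± 0.09, adjusted p = 0.0564). Ppp1r15a averaged 993 ± 167 CPM on lean diet and 789 ± 125 CPM after 16 weeks (log2 -0.34 ± 0.11, adjusted p = 0.0678). Hspa1b averaged 13.7 ± 10.4 and 4.24 ± 3.62 CPM (log2 -1.75 ± 0.54, 0.0564), and -1.16 without lean KO library 1 (adjusted p = 0.2605). DESeq2 called these 3 genes as well, for 6 in all.

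By role, 0 of 17 heat shock genes, 1 of 14 ER chaperones, 2 of 9 UPR genes and 0 of 2 ATF4 targets passed at 16 weeks. Without a filter on low counts the test called 7 of the genes, all lower, of which Herpud1 alone was shared with the 3. The other 6 were Hspa8, Hsp90aa1, Hspa1a, Hspa1b, Dnajb1 and Ppp1r15a. The share of all genes called with that setting is not given here, so these 7 are no result about the list. Leaving out a library gave 1 to 4 calls, the single call, Herpud1, being without KO library 3 of 16 weeks. Genes of the same pathways outside the list passed in shares near or below the 6.63% of all genes, namely 6.67% of other chaperones, 4.55% of other ER genes and 5.56% of other stress response genes. Of 45 other cytosolic and mitochondrial chaperones 1 rose, Dnajb2 (log2 0.73, adjusted p = 0.0346), and 2 fell, Bag6 (-0.51, 0.00961) and Fkbp5 (-0.54, 0.0318). Of 44 other ER folding and UPR genes 2 fell, the ER oxidase gene Ero1l (-0.86, 0.012) and Nucb2 (-0.86, 0.0385). Of 36 other genes of the integrated stress response 2 fell, the stress-induced factor Atf3 (-2.11, 0.00031) and the mTORC1 inhibitor Ddit4 (-0.79, 0.0424).

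Other measures moved with 16 weeks of diet. Of 25 immediate early genes 17 fell and 1 rose (median log2 -0.65), and their sum was 15213 to 22819 CPM against 19912 to 39493 CPM on lean diet. The 11 Treg markers summed to 6265 to 8818 CPM against 6955 to 9440 CPM. Means were lower for Klrg1 (639 and 1263 CPM), Il2ra (364 and 669 CPM), Il1rl1 (368.5 and 662 CPM) and Gata3 (1383 and 1738 CPM), among others. They were higher for Cd3e (883 and 730 CPM), Ikzf2 (793 and 687 CPM), Tnfrsf18 and Cd4. KO library 1 of 16 weeks held 125 CPM of 6 stromal markers and 52.0 CPM of 5 adipocyte markers, where the other lean and 16-week libraries held 2.91 to 11.1 and 1.66 to 10.9 CPM. The 5 endothelial markers summed to 49.5 to 194 CPM against 38.4 to 75.1 CPM on lean diet, most of it Pecam1. WT library 3 of 16 weeks held 699 CPM of 7 cytotoxic T and NK markers. The other 16-week libraries held 129 to 200.5 CPM of these and the lean ones 157 to 389 CPM. Of the class II markers, Cd74 averaged 83.4 CPM after 16 weeks and 27.4 CPM on lean diet, and H2-Eb1 22.2 and 31.0 CPM. The part of these measures in the results above was not tested, apart from the fits that left out a library. Without KO library 1 of 16 weeks Herpud1 remained called and Atf4 and Dnajc3 did not. At the other end, 4 of 5 plasma cell markers were at or near 0 throughout: Tnfrsf17 had no count in any library, Mzb1 none in 21, and the highest levels of Jchain and Sdc1 were 4.22 and 4.19 CPM.

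**Figure D4:**
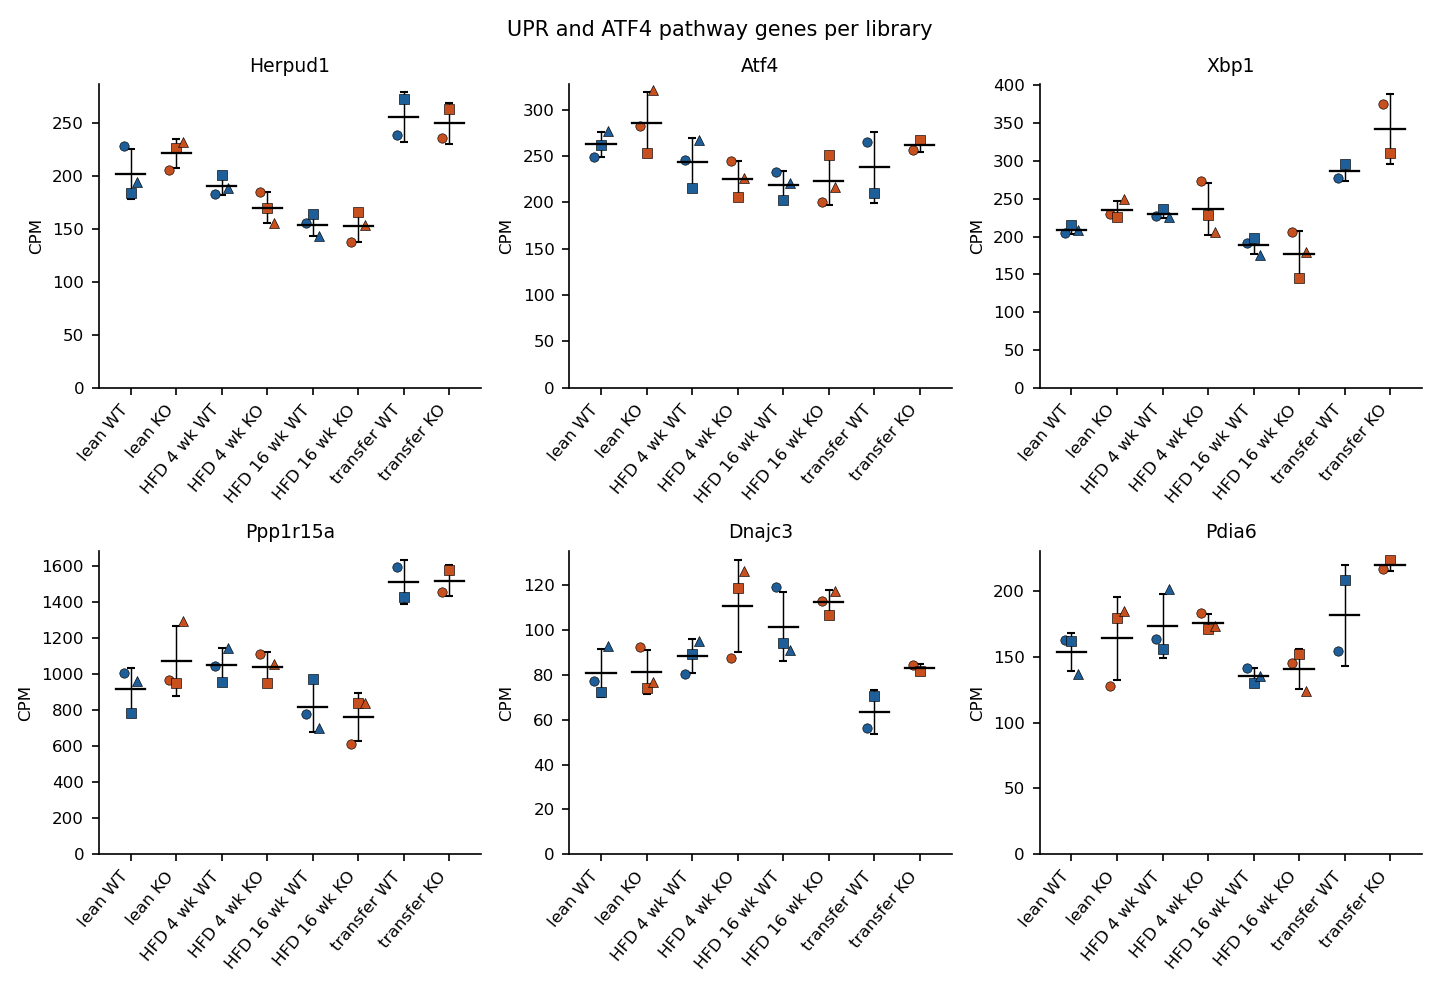
CPM per library of 6 UPR and ATF4 pathway genes, WT in blue and KO in orange, with group means and SD; circles, squares and triangles are libraries 1, 2 and 3. All 16-week libraries of Herpud1 lie below all lean libraries (137 to 166 against 184 to 232 CPM), and the transfer libraries are highest for Herpud1, Xbp1 and Ppp1r15a. Against lean diet Xbp1 and Ppp1r15a passed after transfer and Herpud1 did not.

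Between 4 and 16 weeks of high fat diet Xbp1 alone passed, 1 of 42 genes (2.38%) where 2.12% of all genes did. It had 227, 236 and 226 CPM in WT and 273.5, 229 and 206 CPM in KO at 4 weeks, and 145 to 206 CPM at 16 weeks (log2 -0.35 ± 0.09, adjusted p = 0.0453). The ranges met only at 206 CPM. The call held in 3 of 12 fits without a library and was lost without any one of WT libraries 1 to 3 or KO libraries 1 and 2 of 4 weeks, and of WT libraries 1 and 3 or KO libraries 2 and 3 of 16 weeks. It was also lost without the filter and with the replicate number as a block (adjusted p 0.015 to 0.135 over all alternatives). Ppp1r15a followed (log2 -0.40 ± 0.11, adjusted p = 0.0594), and without WT library 2 of 16 weeks it was called beside Xbp1. Pdia6, an ER disulfide isomerase, was 124 to 152 CPM in all 16-week libraries and 156 to 201 CPM in all 4-week libraries and did not pass (log2 -0.33 ± 0.10, adjusted p = 0.101). It was the only member with such ranges, which 0.966% of all genes had.

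Adoptive transfer against lean diet, 4 against 6 libraries, gave the clearest difference of the list. Of 44 tested genes 12 rose (27.3%) and 1 fell, where 7.35% of all 12523 genes tested rose, 8.81% fell and 16.2% passed in all. The ER chaperones led, with 7 of 14 that rose and 0 that fell, a median log2 fold change of 0.35 and 13 positive, where the median of all genes was -0.0205. Their summed level was 3731 to 3998 CPM in the 4 transfer libraries and 2740 to 3318 CPM in the 18 diet libraries. The sum over ATF4 targets, nearly all Ppp1r15a, was 1447 to 1610 CPM after transfer and 622 to 1315 CPM in the diet libraries. Transfer cells were deeper sequenced, came from a separate experiment, from mice of 20 against 18 weeks and through a host, and these cannot be told apart.

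The ER chaperones that rose have different tasks in folding. Hspa5 (chr2:34771970-34777547), or BiP, which binds unfolded chains and keeps the UPR sensors silent, had 968, 1035, 965 and 941 CPM after transfer and 631 to 767 CPM in lean libraries (log2 0.39 ± 0.09, adjusted p = 0.00635). Hsp90b1 (chr10:86690209-86705509), or GRP94, had 428, 516, 514 and 523 CPM against 332 to 425 CPM (0.36 ± 0.09, 0.00698). Calr (chr8:84841850-84846934), the soluble lectin chaperone calreticulin, had 294, 318, 287 and 314.5 CPM against 203 to 240.5 CPM (0.40 ± 0.08, 0.00113). In each of these 3 genes every transfer library lay above every lean library. For Hsp90b1 this rests on TMM scaling, since its ranges overlapped by plain totals.

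Pdia3 (chr2:121413775-121438687), the disulfide isomerase that works with calreticulin and calnexin, had 844, 827, 799 and 901 CPM after transfer and 506 to 650.0 CPM on lean diet (0.42 ± 0.08, adjusted p = 0.000714). Manf, a secreted ER-resident factor, had 87.2, 88.6, 90.2 and 77.4 CPM against 51.9 to 70.7 CPM (0.47 ± 0.13, 0.0148). Dnajb9, the BiP co-chaperone ERdj4, had 66.3, 77.9, 56.3 and 70.3 CPM against 30.3 to 53.7 CPM (0.56 ± 0.18, 0.0349). Again the groups did not overlap with TMM scaling. By plain totals they overlapped for Dnajb9 and, barely, for Manf. Pdia4 did overlap, since WT library 2 had 159 CPM while the others had 223, 219 and 211 CPM, against 147 to 173 CPM (0.30 ± 0.09, 0.0242). Some genes that rose share exon bases with other genes in an unstranded count. These are Dnaja1 (931 bases, Smu1 among the others), Hsp90b1 (632 bases), Manf (326 bases, with Dcaf1 and Rbm15b among them) and Pdia3 (18 bases, Catsper2). Pdia4, Dnajb9 and Ppp1r15a share fewer bases than Pdia3.

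Of the 7 ER chaperones whose promoters hold the printed CCAAT and CCACG element, 3 rose after transfer (Hspa5, Hsp90b1 and Calr) and 4 did not pass. Those 4 were Canx (log2 0.03), Pdia6 (0.28), Dnajc3 (-0.21) and Creld2 (0.11), with adjusted p values of 0.816, 0.106, 0.258 and 0.632. Of the 4 genes with the longer heat shock element, Chordc1 rose, while Hspd1 (0.19), Hspe1 (0.29) and Hsph1 (0.20) did not pass.

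Among UPR factors Xbp1 rose, with 278, 296, 375 and 310.1 CPM after transfer against 204 to 249 CPM on lean diet (log2 0.44 ± 0.10, adjusted p = 0.00258). Ppp1r15a (chr7:45522916-45526268), the feedback phosphatase subunit, had 1595, 1424, 1456 and 1579 CPM against 783 to 1296 CPM (0.56 ± 0.11, 0.00165). No transfer library of either gene fell within its lean range. Atf4 did not pass (-0.19, 0.189), nor did Ddit3, which leaned lower (-0.57 ± 0.20, 0.0555), nor the sensors Ern1 (0.48, 0.335), Eif2ak3 (0.01, 0.9895) and Atf6 (-0.07, 0.858). Herpud1 did not pass either, with 236 to 272 CPM after transfer and 184 to 232 CPM on lean diet, ranges that overlapped by plain totals. Trib3, a target of ATF4 and CHOP, fell (log2 -2.11 ± 0.72, adjusted p = 0.0494) on 1, 0, 6 and 9 counts after transfer and 2 to 8 counts per lean library, and it was called in 2 of 14 alternatives.

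In the cytosol 3 of 18 heat shock genes rose. Hspa4 had 310.5, 287, 295 and 291 CPM after transfer and 236 to 260.5 CPM on lean diet (log2 0.22 ± 0.07, adjusted p = 0.0291). Chordc1, an HSP90 cofactor, had 123, 139, 142 and 168 CPM against 81.2 to 115 CPM (0.41 ± 0.13, 0.0293). Dnaja1 had 582, 823, 555 and 718 CPM against 387 to 746 CPM (0.45 ± 0.15, 0.0356), where the highest lean value was that of KO library 1, without which the log2 fold change was 0.61 (adjusted p = 0.00267). The inducible genes Hspa1a (0.15, 0.906), Hspa1b (0.31, 0.728) and Dnajb1 (0.09, 0.858) did not pass against these scattered lean libraries. Hspa1a was 127, 147, 59.1 and 192 CPM after transfer. Summed heat shock genes had 7273 to 9238 CPM after transfer, below the 9735 CPM of lean KO library 1 and above the other 5 lean libraries. That order rests on TMM scaling, with factors of 0.889 to 0.917 in transfer libraries and 0.973 to 1.06 in lean ones. By plain totals, transfer KO library 1 lay below the lean WT libraries.

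**Figure D5:**
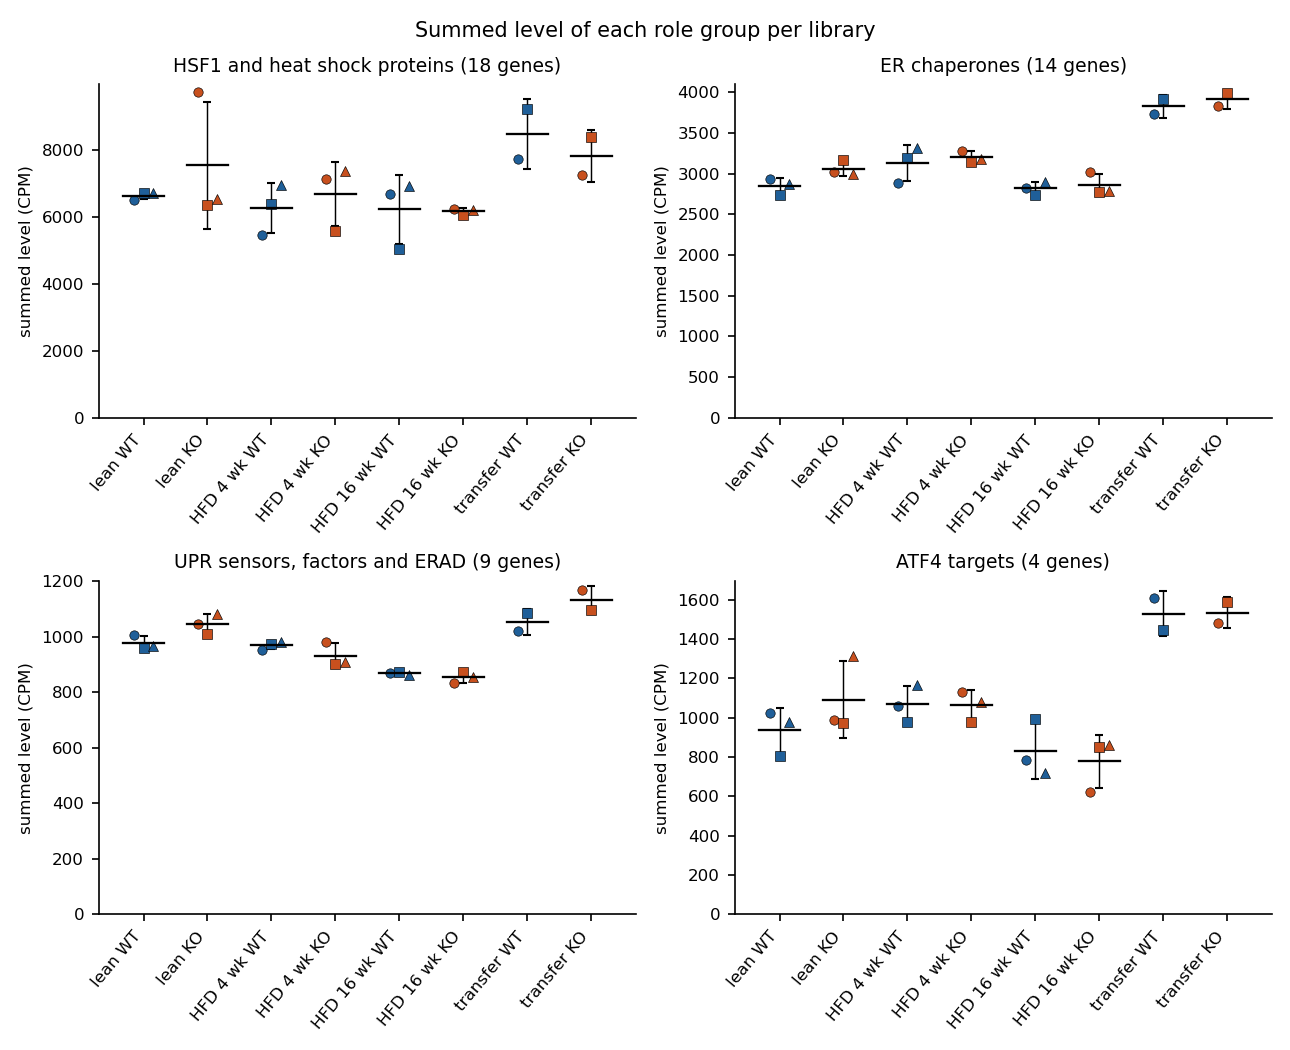
Summed CPM of the 4 role groups per library (WT blue, KO orange; circles, squares and triangles are libraries 1, 2 and 3), with group means and SD. ER chaperone sums of the 4 transfer libraries (3731 to 3998 CPM) lie above all 18 diet libraries, and heat shock sums are set apart by lean KO library 1 at 9735 CPM.

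Of the 13 calls, those of Pdia3, Calr, Hspa5, Xbp1 and Ppp1r15a held in all 15 alternatives. The others were lost in some alternatives. Hsp90b1 was lost without transfer WT library 2 (adjusted p = 0.0539) and Manf without transfer KO library 1 (0.0634). Pdia4 was lost with no filter, with only lean and transfer libraries in the fit, and without lean WT library 1, transfer WT library 1 or either transfer KO library (adjusted p up to 0.214). Dnajb9 was lost without lean WT library 1 or 2, lean KO library 1, transfer WT library 2 or transfer KO library 2 (up to 0.135). Chordc1 was lost without lean WT library 1, lean KO library 2 or 3, transfer WT library 2 or transfer KO library 2 (up to 0.126). Dnaja1 was lost with only lean and transfer libraries in the fit and without lean WT library 2 or 3, lean KO library 2 or 3, transfer WT library 2 or transfer KO library 2 (up to 0.202). Hspa4 was lost without lean WT library 3, lean KO library 2 or 3, transfer WT library 1 or either transfer KO library, and with the replicate block, with no filter or with only lean and transfer libraries in the fit (up to 0.1599). Trib3 was called with RLE scaling and in 1 of 10 fits without a library, that without transfer WT library 1. The count was 8 without transfer WT library 2 and 7 without transfer KO library 2, and 11 without lean KO library 1. Ranges were wholly above lean diet for 12 genes (27.3%), where 8.46% of all genes had such ranges, and wholly below for 0, where 4.4% did. These ranges rest on TMM scaling. By plain totals several of the 12 overlapped, among them Hsp90b1, Manf, Dnajb9, Hspa4, Chordc1 and Herpud1. Genes of the pathways outside the list were set beside the 7.35% of all genes that rose. Those that rose were 8 of 44 other ER folding and UPR genes (18.2%), led by the signal peptidase genes Spcs2 (log2 0.46, adjusted p = 0.000741) and Sec11c (0.40, 0.00278), the retention factor Erp44 (0.44, 0.00535) and the translocon gene Sec61b (0.45, 0.00624). They were also 8 of 45 other chaperones (17.8%), led by Dnaja2 (0.47, 0.000279), Hsf2 (1.06, 0.000722), the HSP90 cofactors Ptges3 (0.69, 0.00132) and Ahsa1 (0.42, 0.00746), with 0 that fell in either list. Of 37 other genes of the integrated stress response 3 rose (8.11%, near the background), Eif2s1 (0.74, 0.000199), Psph (0.57, 0.0156) and Atf3 (0.95, 0.0335), and 1 fell, Eif2ak4, the amino acid sensor GCN2 (-1.03, 0.00135).

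Other measures moved with transfer as well. Of 25 immediate early genes 15 rose and 0 fell (median log2 0.60), with sums of 47701 to 59366 CPM against 19912 to 39493 CPM on lean diet. The 11 Treg markers summed to 12848 to 13415 CPM against 6955 to 9440 CPM. Most of this was Klrg1 (means of 2430 and 1263 CPM), Gata3 (2623 and 1738 CPM), Il2ra (1548 and 669 CPM) and Il1rl1 (1418 and 662 CPM). Cd3e (738 and 730 CPM), Cd4 (761 and 692 CPM) and Ikzf2 (744 and 687 CPM) differed little. The 7 cytotoxic T and NK markers summed to 47.2 to 118 CPM against 157 to 389 CPM, without overlap. Most of this was Nkg7, with means of 52.9 and 229.6 CPM, and Prf1 was also lower (3.62 and 11.7 CPM). Gzma (8.44 and 1.06 CPM) and Cd8b1 (21.5 and 14.3 CPM) were higher after transfer, and Cd8a, Klrb1c and Ncr1 were near 0 in both. The 7 dendritic cell and class II markers averaged 48.5 ± 14.0 CPM (SD, n = 4) against 88.0 ± 32.1 CPM (SD, n = 6), with overlap. The part of these measures in the chaperone result was not tested. Plasma cell markers, of a cell type known for high ER chaperone levels, summed to 94.7 to 112 CPM after transfer and 97.0 to 138 CPM on lean diet, nearly all of it Prdm1, which Tregs express. Of the other plasma cell markers, Sdc1 averaged 2.46 CPM after transfer and 0.1555 CPM on lean diet. Mzb1 averaged 0.340 and 0 CPM, with counts in 1 library, a transfer one. Jchain averaged 0.0566 and 0.8002 CPM, and Tnfrsf17 was at 0 in all these libraries.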

How the data were processed

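Per the submitters' processing notes, reads (pairs of 38 bases, oligo(dT)-primed, tagmented and not marked for strand) went through STAR 2.7.3a as aligner (genome mm10) and featureCounts as counter. The sources used here do not give its version or its settings for strand and shared reads. The authors deposited 1 table of whole-number counts per gene for 22 libraries, with no scaling seen. The rest was computed here from these counts. Groups came from the labels.

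edgeR 4.0.16 (R 4.3.3) scaled counts by TMM, kept genes by filterByExpr (minimum count 10) and tested with the quasi-likelihood F test, adjusted by Benjamini-Hochberg over all genes, threshold 0.05. The 18 diet libraries were fitted with a mean per group, the 4 transfer libraries alone, and all 22 for transfer against lean diet. Of the 45 genes, 42 passed the filter in the diet fit (not Hspb1, Trib3 and Chac1), 43 in the transfer fit (not Trib3 and Chac1) and 44 in the joint fit (not Chac1). No library was left out. Alternatives were RLE scaling, no filter, DESeq2 1.42.0, a block for the replicate number, other libraries in the fit, each library left out, and plain totals for sums. Shares of all genes called are given for the main fits only. The edgeR script was tested on simulated data.

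The members and lists were chosen with earlier results of these data known, as were the 11 comparisons. Genes named with values were all those past the threshold, the 3 with the smallest p where fewer than 3 passed, the 4 highest and 4 lowest per length and the 4 of widest spread; at most 4 genes were named per other list. Xbp1, Hspa1b and Ppp1r15a at 16 weeks against lean diet, Herpud1 at 16 against 4 weeks, and genes given as not passing after transfer were named after their values were seen. Replicate numbers were not used to pair libraries in the main fits. None of 11 same-numbered pairs correlated above 0.1, but 11 of 18 diet libraries correlated best with a library of their own number. With so few libraries per group, these values cannot settle whether libraries were paired. Gene positions, overlaps and shared 38-base stretches came from GENCODE M21, in which 52936 of the 55011 symbols were found. Promoter windows came from RefSeq.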

Additional observations from a re-analysis of the deposited data

Results flagged for a closer look

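Hspa9, the mitochondrial HSP70, had KO against WT fold changes of opposite sign in separate settings. After 4 weeks of high fat diet its log2 fold change was 0.19 (0.1925), with every KO library (197, 185 and 173 CPM) above every WT library (172, 143 and 170.5 CPM). After adoptive transfer it was -0.43 (-0.4267), with both KO libraries (166 and 173 CPM) below both WT libraries (209.7 and 244 CPM). At 4 weeks 4.94% of all genes had KO ranges wholly above WT, and the 95% interval for Hspa9, -0.104 to 0.489, held 0. After transfer 17.3% of all genes had KO ranges wholly below WT. Neither fold change passed at an adjusted p under 0.05 in edgeR, and the difference between the settings was not tested.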

How the results depend on the processing

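With no filter on low counts, calls among the 45 genes were 2 for KO against WT on lean diet, 1 averaged over the diets, 4 for 4 weeks and 7 for 16 weeks of high fat against lean diet, 2 for 16 against 4 weeks, and 1 and 2 for the interactions at 4 and 16 weeks. DESeq2 gave 6 for 16 weeks against lean diet and 2 for 16 against 4 weeks, and all 22 libraries in one fit gave 2 for the latter. With the replicate block it was 0 for 16 against 4 weeks, and the block changed no other count by over 1.5 times. Leaving out 1 library gave 1 to 4 calls for 16 weeks against lean diet, 0 to 2 for 16 against 4 weeks, and 7 to 12 for transfer against lean diet (8 without transfer WT library 2). The only reversal was Dnajb1 for KO against WT on lean diet without lean KO library 1 (-0.003942, adjusted p = 0.9995 by edgeR; -0.003942 to 0.9482 over the fits without a library). The cause was not tested in any of these, and shares of all genes called are not given for these settings. The other counts stayed within 1.5 times. Scaling moved the median of all genes by under 0.1 on the log2 scale. Of the 18 diet libraries 11 correlated best with a library of their own number, a hint from the data and not the design. Counts under 10 per diet library limit Hspb1 and Chac1.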
